A study of Mus musculus with 16 samples.

Results

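Late tiles were defined as fixed 500-bp windows of mouse chromosomes 1 to 19 that were still nearly unmethylated in oocytes of 40–45 and 50–55 µm and carried methylation in oocytes of 60–65 µm. A tile was measured where all 6 libraries of reduced representation bisulphite sequencing (RRBS) held at least 5 cytosines of at least 5 calls each, and its methylation level was the mean over those cytosines. The rule asked for a level under 10% in the 4 libraries of 40–45 and 50–55 µm oocytes and of at least 20% in both libraries of 60–65 µm oocytes. Of 27949 measured tiles, 118 met it. For comparison, 955 tiles gained methylation early (under 10% at 40–45 µm, at least 20% in all 50–55 and 60–65 µm libraries), 484 were methylated before (at least 20% in all 6) and 23266 stayed low (under 10% in all 6).

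Oocytes set down their DNA methylation after birth, while they grow arrested in meiosis, from a genome largely cleared of methylation in the germline. The de novo methyltransferase DNMT3A and its cofactor DNMT3L place it mainly over transcribed gene bodies, so that a promoter or CpG island can become methylated when a transcript that starts upstream runs through it. Some of these islands are the germline differentially methylated regions of imprinted genes, whose maternal marks are kept after fertilisation.

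All samples were wild-type oocytes, given as C57BL/6 in the labels and C57BL/6Babr in the methods. The methods describe oocytes picked from the ovaries of pre-pubertal mice and pooled by diameter, with larger classes taken from older pups over overlapping ages, so diameter and age cannot be told apart. RRBS, which reads cytosines near MspI sites, had 2 libraries (A and B) of each of the 3 classes, and 1 library of 60–65 µm oocytes was made by post-bisulphite adapter tagging (PBAT), which reads the genome without a restriction enzyme. RNA was sequenced from 2 libraries (A and B) of each of these classes, from 2 of oocytes of 10–30 µm and from 1 of germinal vesicle (GV) oocytes, the fully grown stage. It is given as RPKM, reads per gene scaled for gene length and library depth. The RRBS libraries held 29275627 to 55938194 calls on the autosomes and the PBAT library 94501474. Nothing in the labels says that A and B came from separate animals, so the spread between them may be technical.

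The labelled cell type was checked against marker genes. All 10 oocyte markers, such as Zp2 of the egg coat and the growth factor Gdf9, were above 0.5 RPKM in every library. Of 23 granulosa, theca, stroma, blood and endothelial markers, 16 stayed under 0.5 RPKM in all 8 libraries of growing oocytes. Nr5a2 (1.29 to 4.81 RPKM) and Pecam1 (0.531 to 4.70 RPKM) were the highest of the other 7, and both were higher in larger oocytes. Col1a1, Col1a2 and Col3a1 were lower in larger oocytes, with Col1a1 at 1.63 and 1.16 RPKM at 10–30 µm and 0.400 and 0.241 at 60–65 µm, and the endothelial Cdh5 stayed at or under 0.0101 RPKM. The summed RPKM of the granulosa list was 2.09 to 7.84, of the theca and stroma list 0.528 to 3.82 and of the blood and endothelium list 0.853 to 5.05, against 2594 to 3618 for the oocyte list. The granulosa sum was 2.09 and 2.52 at 10–30 µm and 7.84 and 7.22 at 60–65 µm. In that list Cyp19a1 went from 0.161 and 0.159 RPKM to 1.25 and 1.04 between these classes. Inha went from 0.136 and 0.200 to 0.542 and 0.528, and Fshr and Kitl were also higher in the larger class. Foxl2 of granulosa cells had no such rise and stayed at or under 0.0642 RPKM. Ptprc of leukocytes stayed at or under 0.00823. In pools, fewer cells of a type and less RNA per cell cannot be told apart. In the DNA, the starts of germline genes, which are methylated in somatic cells, set libraries apart. Over the 8 starts measured (such as Dazl and Sycp3), the median level was 0.352% to 1.17% in both 40–45 µm libraries, 50–55 µm A and 60–65 µm B, against 7.99% in 50–55 µm B and 5.07% in 60–65 µm A. It was 6.15% over 10 starts in PBAT, where the region upstream of H19, methylated on paternal alleles of somatic cells, had 2.05% over 26 cytosines. The part of these differences in the tile levels was not tested. Without the 50–55 µm B library the rule took 329 tiles and without the 60–65 µm A library 238. It took 316 without 50–55 µm A and 155 without 60–65 µm B.

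The sequence of the 5 late tiles with the highest RRBS level at 60–65 µm shows what was read in these regions. Capitals mark each CpG whose cytosine had at least 5 calls in both 60–65 µm libraries, on either strand. Sequences are from RefSeq's GRCm38 assembly, plus strand, for Rusc2 at chr4:43415161-43415327, Lrrc8d at chr5:105732247-105732316, Gnas at chr2:174327845-174327993, Rrp7a at chr15:83117512-83117686 and Zdhhc8 at chr16:18224242-18224373.
Rusc2: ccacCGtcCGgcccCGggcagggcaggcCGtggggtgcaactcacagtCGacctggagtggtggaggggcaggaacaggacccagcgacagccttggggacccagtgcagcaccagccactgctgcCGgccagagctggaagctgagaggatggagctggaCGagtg
Lrrc8d: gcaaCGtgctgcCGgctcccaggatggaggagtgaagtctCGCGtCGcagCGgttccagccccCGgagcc
Gnas: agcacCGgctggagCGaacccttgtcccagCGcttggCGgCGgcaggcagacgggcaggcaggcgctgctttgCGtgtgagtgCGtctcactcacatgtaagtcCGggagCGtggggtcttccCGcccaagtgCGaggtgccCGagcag
Rrp7a: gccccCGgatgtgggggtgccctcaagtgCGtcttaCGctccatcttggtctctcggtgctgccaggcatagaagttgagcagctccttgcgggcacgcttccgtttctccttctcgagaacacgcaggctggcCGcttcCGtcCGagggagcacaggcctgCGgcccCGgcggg
Zdhhc8: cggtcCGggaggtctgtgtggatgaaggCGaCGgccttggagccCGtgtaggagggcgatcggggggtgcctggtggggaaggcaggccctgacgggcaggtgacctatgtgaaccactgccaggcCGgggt

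The Rusc2 tile lay in an exon of Rusc2, an adaptor protein with RUN and SH3 domains. The Lrrc8d tile lay 20 bp from an internal transcript start of Lrrc8d, a subunit of the volume-regulated anion channel. The Gnas tile lay 7 bp from an internal transcript start of the imprinted gene for the stimulatory G-protein alpha subunit. The tile in Rrp7a, a gene of ribosomal RNA processing, and that in Zdhhc8, a palmitoyltransferase, lay 134 and 432 bp from transcript starts of those genes. The marked cytosines of the Rusc2 stretch ran from 10% to 75% in 60–65 µm A and from 10% to 100% in B. Those of the Lrrc8d stretch ran from 18.2% to 61.1% and from 8.82% to 100%. The Gnas stretch covered 16 cytosines of 12 marked CpGs, from 17.1% to 59.1% in A and from 10% to 86.3% in B. The Rrp7a stretch ran from 0% to 83.3% in both libraries, and the Zdhhc8 stretch was the most even, from 32.7% to 61.4% in A and from 20.5% to 58.7% in B. Neighbouring cytosines of a late tile could thus differ widely in measured level within a single library of pooled oocytes. A marked cytosine may rest on as few as 5 calls, and sampling error was not separated from these ranges. The Zdhhc8 stretch also had the fewest such cytosines (5).

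Across the 118 late tiles, the levels that chose them were as follows. The median tile level was 0.947% and 0.641% in 40–45 µm A and B, 6.98% and 4.38% in 50–55 µm A and B, and 25.8% and 30.0% in 60–65 µm A and B. Quartiles at 60–65 µm were 22.8% and 30.3% in A and 24.7% and 37.8% in B, with maxima of 44.6% and 57.6%. Late tiles thus sat at intermediate levels, and their mean over both 60–65 µm libraries reached 30% in 52 tiles, 40% in 6 and 50% in 0. The median mean was 28.4%, against 64.0% for early tiles, 60.8% for tiles methylated before and 0.631% for low tiles. Each late level rested on a median of 7 to 9 cytosines and 328 to 650 calls per library.

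**Figure D1:**
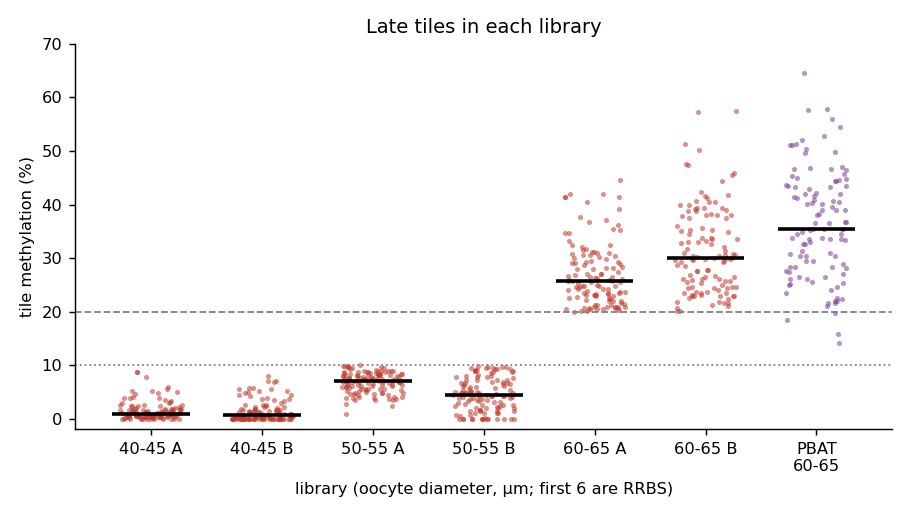
Methylation of each of the 118 late tiles (points, %) in the 6 RRBS libraries and of the 108 measured in the PBAT library, with the median as a black bar. The dotted line is the 10% and the dashed line the 20% threshold of the rule; RRBS medians go from 0.641% at 40–45 µm B to 30.0% at 60–65 µm B, and the PBAT median is 35.4%.

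The levels below the threshold, which the rule also read, varied by library. In 84 of the 118 tiles both 50–55 µm libraries lay above both 40–45 µm libraries, and the median mean level went from 0.954% at 40–45 µm to 5.64% at 50–55 µm. Over the low tiles, chosen to stay low in the same libraries, it was 0.562% and 0.558%. The 50–55 µm libraries did not tell the same story in each tile: 14 late tiles were at 0% in B and none in A, and A was the higher library in 87. At 60–65 µm, B was higher than A in 81 tiles, with a median difference of 2.56 percentage points and an SD over tiles of 8.25. Across the late tiles the levels of A and B had a Pearson r of 0.331 and a Spearman rho of 0.335 (n = 118), over a range that the rule cut from below.

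The same RRBS calls can be described by single cytosine. Of the cytosines in late tiles with at least 5 calls, 76.1% and 86.9% were at 0% in the 40–45 µm libraries, 29.4% and 69.3% in the 50–55 µm libraries A and B, and 5.93% and 10.9% in the 60–65 µm libraries. At 60–65 µm, 60.0% and 63.6% of them lay between 20% and 80%, and 11.2% and 19.7% reached 50%. Within a tile, the SD over its cytosines had a median of 15.9 percentage points in 60–65 µm A and 19.3 in B, and the median lowest cytosine was 4.76% in A and 3.72% in B. These are the calls behind the tile levels that chose the tiles, and describe them only.

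The boundary of the rule was crowded. Of 23898 tiles that were low through 50–55 µm, 97.4% stayed under 10% in both 60–65 µm libraries, 118 reached 20% in both, 118 did so in B alone and 35 in A alone. The lower of the 60–65 µm levels fell between 20% and 25% in 64 tiles and between 15% and 20% in 92. Just inside were tiles in Ncdn (20% in A, 51.3% in B), in Itgad (20.04% and 20.97%) and in an intergenic stretch 11572 bp from the start of Calcoco1 (23.6% and 20.1%). Just outside were tiles in Atp5o (19.96% and 26.4%) and Fhad1 (19.92% and 38.0%) and an intergenic tile of chromosome 5 (19.92% and 21.4%).

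Levels in libraries that the rule had not read gave a measure of how far it carried over. With the rule applied to the A libraries alone, 551 tiles qualified, and 290 of them were measured in all 3 B libraries. Their median in 60–65 µm B was 28.3%, and 227 (78.3%) reached 20% there, but 156 (53.8%) were under 10% in 50–55 µm B, where the median was 9.27%. With the B libraries alone, 455 tiles qualified, of which 320 (71.0%) of the 451 measured in A reached 20% in 60–65 µm A and 238 (52.8%) were under 10% in 50–55 µm A. In these chosen tiles, 20% at 60–65 µm was reached again more often than the level at 50–55 µm was again under 10%. The cuts are unlike. In the A libraries that chose the tiles the median was 7.05% at 50–55 µm, close to its cut, and 26.4% at 60–65 µm. Of all 27949 measured tiles, 23898 were under 10% in every library through 50–55 µm. The share of all tiles that pass each cut in a single library is not given here.

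PBAT measured 108 of the late tiles at 60–65 µm with at least 5 cytosines of at least 5 calls, and its values took no part in the rule. Their median PBAT level was 35.4% (quartiles 28.3% and 43.5%), against 68.6% for 807 early tiles, 55.3% for 443 tiles methylated before and 3.001% for 21590 low tiles. It was at least 20% in 104 of the 108 late tiles, at least 30% in 76 and at least 50% in 11, while 762 of the 807 early tiles reached 50%. All 108 late tiles lay above 9.86%, the 95th percentile of low tiles, and 1 lay above 61.3%, the lower quartile of early tiles. In a library that the rule had not read, late tiles were again between the low and the early tiles. Without the 50–55 µm B library in the rule the median PBAT level was 39.0%, and without the 60–65 µm A library 29.3%, with 43.5% without 50–55 µm A. With 1 PBAT library there was no replicate, and the differences between tile classes were not tested.

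**Figure D2:**
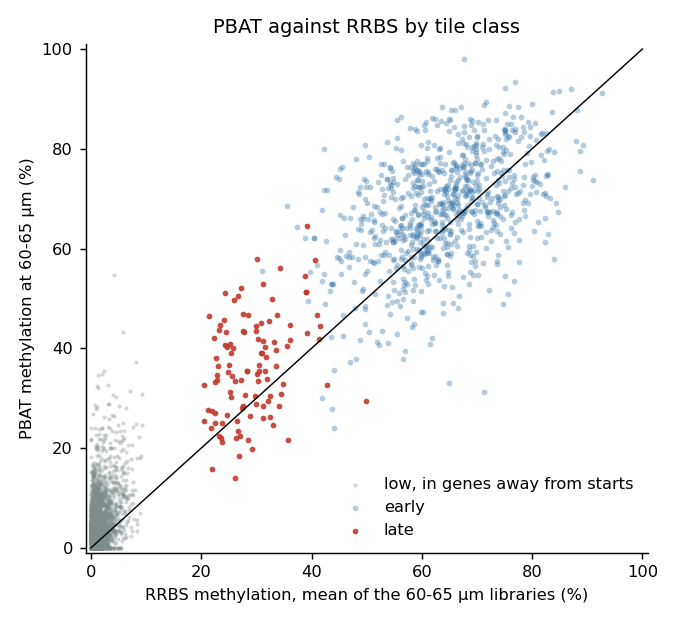
PBAT level against the mean RRBS level of the 60–65 µm libraries (both %), for the 108 late tiles, 807 early tiles and 4362 low tiles inside genes and over 500 bp from starts, with the line of equality. Late tiles (red) sit between the other classes on both axes, and 82 of the 108 lie above the line.

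Within the late class, PBAT and RRBS ranked tiles weakly alike. PBAT was above the RRBS mean in 82 of 108 tiles, by a median of 6.29 percentage points, and the levels had a Pearson r of 0.334 and a Spearman rho of 0.308. Early tiles were higher in PBAT by 4.57 points and low tiles by 2.24, while tiles methylated before had a median difference of -4.94 points. Restricted to cytosines that RRBS had also measured, 71 late tiles had a median PBAT level of 32.3%. The PBAT level of a tile rested on a median of 20 cytosines and 147 calls, fewer calls than RRBS had. The highest PBAT levels were 64.6% in Cntnap1, 57.9% in Prr5l and 57.7% in Por. The lowest were 14.0% in Tbx3os1, 15.9% in the tile near Calcoco1 and 18.5% at the start of Lrch1. The Rusc2 tile, highest in RRBS (42.0% and 57.6%), had 29.4% in PBAT over 24 cytosines, as 41.8% at those RRBS had measured and 23.2% at the others.

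Late tiles did not stand out from their surroundings in PBAT. Within 250 bp of the tile centre the median level was 36.7%, and 3 to 5 kb away on either side it was 41.0%, with the flank above the centre in 70 of 117 tiles (59.8%). Early tiles were peaks: 68.4% at the centre against 55.2% in the flanks, with the flank higher in 22.4% of 942. The surroundings of late tiles varied widely, from under 20% in 16 tiles to at least 50% in 41. Measured RRBS tiles next to a late tile (35 in all) had a median of 7.50% at 50–55 µm and 26.9% at 60–65 µm. Of these, 8 were themselves late, 1 was early and 1 low, and the other 25 met no rule. The medians include the 8 late neighbours, whose levels the rule chose.

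**Figure D3:**
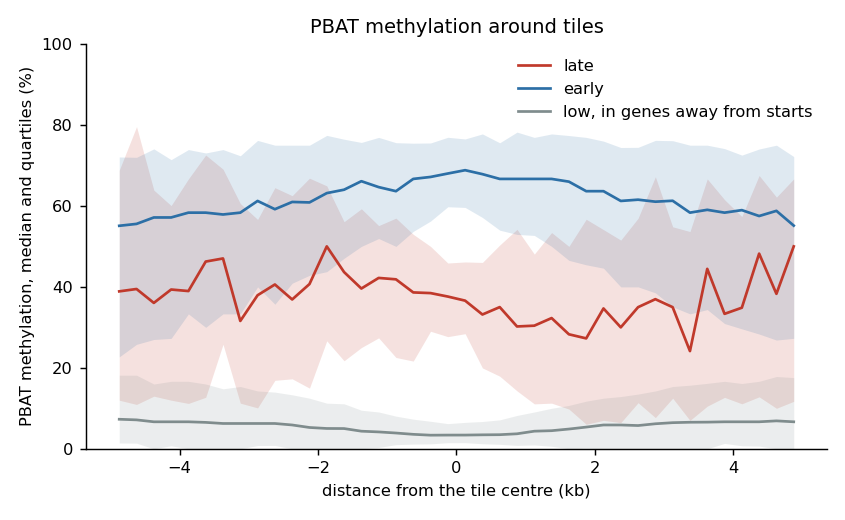
PBAT methylation at 60–65 µm (%) in 250-bp bins from 5 kb before to 5 kb after the tile centre, for late tiles, early tiles and low tiles inside genes and over 500 bp from starts; lines are medians over tiles with at least 10 calls in a bin and bands the quartiles. The early line peaks at the centre (68.8%), and the late line lies at 37.6% and 36.6% in its 2 central bins with no peak.

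Over whole genes the same picture held. The host was the longest annotated gene across the tile's centre, and 110 late tiles had 102 hosts. The median PBAT level over the whole host was 38.5% for late tiles, 45.3% for 756 hosts of early tiles and 8.90% for 3284 hosts of low tiles lying away from starts. It was 19.4% for 10794 hosts of any low tile. The level was under 20% in 15.7% of late hosts and 2.91% of early hosts. A late tile was below its host's level in 49 of 102 tiles, and an early tile in 38 of 787 (4.83%). Rusc2 (29.4% against 52.5% over the gene), Dnmt3b (30.7% against 53.5%) and H13 (21.1% against 51.8%) were examples of late tiles below their gene. Dgkg (51.3% against 28.3%), Reep6 (51.2% against 25.2%) and Rrp7a (41.9% against 25.4%) were examples above it.

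Late tiles were intragenic. Of the 118, 110 lay in an annotated gene (93.2%, 95% Wilson interval 87.2% to 96.5%), 104 of them in protein-coding hosts. The share was 97.5% for early, 78.1% for low and 25.4% for previously methylated tiles. By position, 32 late tiles (27.1%) lay within 500 bp of a transcript start, 46 (39.0%) in exons away from starts, 35 (29.7%) in introns and 5 (4.2%) between genes. Among all measured tiles 62.0% lay at starts. Low tiles lay there in 70.1% and early tiles in 20.4%. The tiles were spread over all 19 chromosomes, from 1 on chromosomes 6, 13 and 18 to 14 on chromosome 11, and formed 114 separate loci. Only 1 late tile was at least 50% repeat-masked (0.847%), against 82.6% of the tiles methylated before.

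Transcript starts in late tiles were mostly inside longer genes. Of 29 late start tiles with a host, 20 lay over 1 kb inside it (69.0%), as did 93.2% of early and 25.8% of low start tiles. Prr5l (17 bp from a start at the midpoint of the gene), Zdhhc8 and Lrrc8d were of this kind. Another 9 lay within 1 kb of the host's own start, among them Dnmt3b, Lrch1, Foxp4, Mchr1 and Disp1. The median distance to the nearest transcript start was 1965 bp for late, 3727 bp for early and 236 bp for all low tiles, and 1286 bp for low tiles inside genes and away from starts. Of the late tiles with a host, 45.5% lay in the last 25% of its length and 24.5% in the first 25%. For early tiles these shares were 44.6% and 10.6%, and for all low tiles 8.30% and 74.2%. For low tiles inside genes and away from starts they were 20.3% and 47.5%.

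CpG number placed late tiles between early and low tiles. A late tile held a median of 20 CpGs (quartiles 13.3 and 27.8), an early tile 15, a low tile 37, and a low tile inside genes away from starts 27. At least 30 CpGs were found in 27 late tiles (22.9%), 7.23% of early and 66.3% of low tiles. GC content followed the same order, with medians of 58.6% for late, 55.8% for early and 63.4% for low tiles. The observed over expected CpG ratio was 0.453, 0.415 and 0.760. Without the 50–55 µm B library in the rule the late median fell to 16 CpGs, and without the 60–65 µm A library it was 20.

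**Figure D4:**
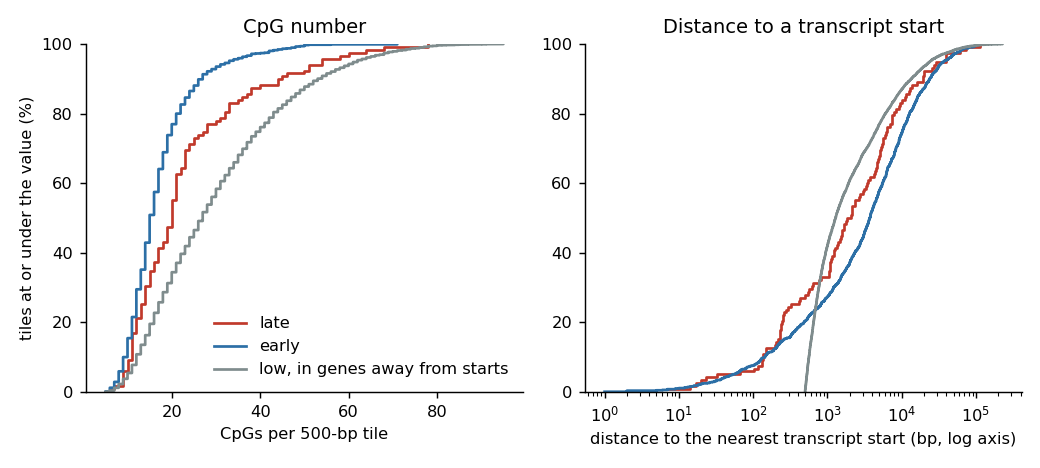
Cumulative share of tiles (%) by CpG number per 500-bp tile (left) and by distance to the nearest transcript start in bp on a log axis (right), for 118 late, 955 early and 4954 low tiles inside genes and over 500 bp from starts. The late curve lies between the others for CpG number, with medians of 15 (early), 20 (late) and 27 (low); at the right, low tiles begin beyond 500 bp by their definition.

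The PBAT level of late tiles changed little with CpG number. The 27 late tiles of at least 30 CpGs had a median PBAT level of 40.0%, 54 measured tiles of 15 to 29 CpGs had 36.5% and 27 of under 15 CpGs had 33.7%. Early tiles of the same bands had 62.1%, 68.4% and 70.6%. Late tiles were below early tiles in each band. Late tiles at starts, in exons and in introns had medians of 33.5%, 35.4% and 37.4%, and early tiles 66.3%, 68.4% and 70.1%.

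Short CpG-holding motifs were searched on both strands of each tile. CGCGC was in 41 late tiles (34.7%), 19.3% of early, 72.4% of low and 64.6% of all measured tiles. CCGCGG was in 17.8% of late, 5.34% of early, 40.1% of low and 35.2% of all tiles. CCGCCC was in 35.6%, 24.9%, 69.9% and 63.5%, and CCCCGCC, which can share letters with it, in 19.5%, 10.99%, 46.6% and 41.3%. CGCCGCC was in 15.3%, 6.49%, 39.8% and 35.03%, and CTCCGCC in 16.1%, 7.85%, 30.5% and 27.2%. All 6 motifs took the order of CpG number, low above late above early, and were not tested apart from it.

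Among 35 imprinted genes of a fixed list, 26 held a measured tile, 3 held a late tile and 9 an early tile. In tiles, 3 of their 58 were late, against 118 of 27949 in all, and this was not tested. The Gnas tile (chr2:174327501-174328000, at an internal start, 46 CpGs) went from 0.385% and 0.667% at 40–45 µm through 6.86% and 1.96% to 41.4% and 41.5%, with 44.5% in PBAT. The last levels rest on 19 cytosines in A and 16 in B, and over the 16 measured in both the means were 30.4% and 41.5%. The tile in Grb10, an adaptor that restrains growth factor signalling (chr11:12025501-12026000, an intron, 574 bp from a start, 51 CpGs), went from 1.88% and 0% through 5.52% and 5.06% to 28.8% and 33.5%, with 41.4% in PBAT. Grb10 also held an early tile 1000 bp away. The tile in H13, which encodes a signal peptide peptidase (chr2:152707501-152708000, an exon near the end of the gene, 37 CpGs), went from 0.877% and 0% through 2.38% and 0% to 20.9% and 26.7%, with 21.1% in PBAT. It lay 20715 bp from the start of Mcts2, the imprinted gene within H13, which held an early tile. All 3 genes had an early tile as well as a late tile.

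Of 42 chromatin genes, 39 held a measured tile (132 tiles), 2 a late tile and 12 an early tile. In tiles, 2 of the 132 were late and 20 early, against 118 and 955 of 27949 in all, and this was not tested. Dnmt3b encodes the de novo methyltransferase that acts in the embryo, and its tile (chr2:153649501-153650000, 133 bp from its start, 64 CpGs) was at 0.566% and 2.01%, then 5.84% and 1.48%, then 20.7% and 35.2%, and 30.7% in PBAT over 92 cytosines. Its 59 and 64 measured cytosines in the 60–65 µm libraries made it one of the best covered late tiles. The intronic tile of Arid1b, a subunit of the BAF remodelling complex (chr17:5152001-5152500, 9 CpGs), went from 0.500% and 0.571% through 5.66% and 2.53% to 26.3% and 35.6%, with too few PBAT calls. In families of developmental transcription factors, matched by name, 192 of 222 genes held a measured tile (618 tiles), 2 a late tile and 7 an early tile. Of these 618 tiles, 2 were late and 9 early, which was not tested either. The Foxp4 start tile (chr17:47924001-47924500, 60 CpGs) reached 22.0% and 23.1% with 25.1% in PBAT. The tile in Tbx3os1, antisense to Tbx3 (chr5:119663001-119663500), reached 22.5% and 29.6% but 14.0% in PBAT over 6 cytosines and 34 calls.

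The other tiles of highest RRBS level were in varied genes. Por, the cytochrome P450 oxidoreductase (chr5:135734001-135734500, an exon), reached 42.0% and 39.1%, with 57.7% in PBAT. Cntnap1 and a start of Plekhh3 overlapped at a pair of adjacent late tiles (chr11:101170501-101171500) that reached 37.8% to 40.5%, with 54.6% and 64.6% in PBAT. The tile in Gm47071, an antisense transcript (chr13:55837001-55837500, 1058 bp from Pitx1), reached 31.1% and 47.3%, with 43.0% in PBAT. The distance between A and B varied from tile to tile. In Dgkg, a diacylglycerol kinase (chr16:22548501-22549000), A and B were 39.2% and 38.9%, whereas in Reep6, an endoplasmic reticulum protein (chr10:80335501-80336000), they were 20.6% and 57.2%. Snph, which docks mitochondria in axons (chr2:151601001-151601500), had 26.4% and 45.9%. Slc12a5, the neuronal potassium-chloride cotransporter (chr2:164998001-164998500), had 34.8% and 37.5%. PBAT gave 51.3%, 51.2%, 44.6% and 41.6% for these 4.

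Lrch1 held the longest run, 3 adjacent late tiles from its start into intronic sequence (chr14:74946501-74948000). The tile at the start was at 28.1% and 25.8% at 60–65 µm, the next at 21.3% and 30.3% and the third at 25.4% and 26.9%. PBAT gave 18.5%, 40.0% and 33.5% along the gene from its start. Gm20388, a long annotated transcript that spans Gse1, Irf8 and Zfpm1, hosted 4 late tiles and 16 early tiles. A pair of its tiles had at least 54 CpGs and reached 30.6% and 40.6% (in Zfpm1) and 27.4% and 33.1%. In all, 15 late tiles lay under more than 1 gene (10.5% of early tiles did), and for these the choice of host is uncertain.

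Genes that hosted late tiles were mostly transcribed. Of the 102 hosts, 98 matched a row of the RPKM table. Both 60–65 µm libraries were at 0.5 RPKM or more for 70 hosts (71.4%), against 87.2% of 736 early hosts, 60.2% of 9881 hosts of any low tile and 40.1% of 2979 hosts of low tiles away from starts. Median RPKM was 1.69 and 1.71 in the 60–65 µm libraries for late hosts, 2.59 and 2.40 for early hosts, 1.24 and 1.21 for hosts of any low tile and 0.166 and 0.154 for those of low tiles away from starts. At 0.5 RPKM or more in all 8 libraries of growing oocytes were 56 late hosts (57.1%), a share near that of hosts of any low tile (56.8%) and below that of early hosts (80.8%). Another 2 late hosts passed that level in both 60–65 µm libraries and in no earlier one. For 22 late hosts (22.4%) no growing library reached it, against 9.51% of early hosts and 35.2% of hosts of any low tile.

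**Figure D5:**
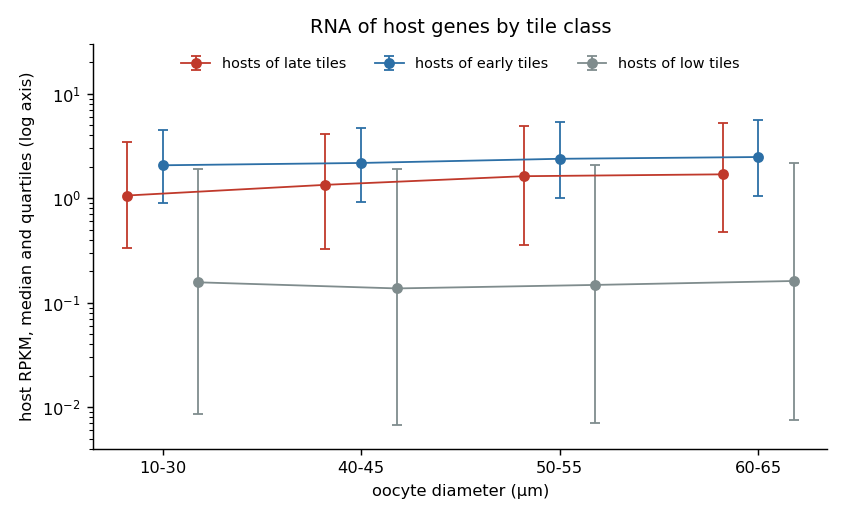
RNA level of host genes (RPKM, log axis) by oocyte diameter, as the median and quartiles over genes of the mean of 2 libraries, for 98 hosts of late tiles, 736 of early tiles and 2979 of low tiles inside genes and away from starts. Late hosts have medians from 1.06 at 10–30 µm to 1.70 at 60–65 µm, below early hosts at each size (2.07 to 2.48).

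The level of the host did not order the late tiles. Over 98 late tiles with both values, PBAT level and mean host RPKM at 60–65 µm had a Spearman rho of -0.08. Tiles whose host was under 0.5 RPKM (n = 23) had a median PBAT level of 36.7%, those at 0.5 to 5 RPKM (n = 51) 34.6% and those above (n = 24) 34.96%. The hosts of highest RPKM were Tent5c, a non-canonical poly(A) polymerase (95.4 and 95.6 RPKM at 60–65 µm), Lamb1 of the laminins (65.9 and 63.1) and Ccdc6 (45.3 and 38.7). Their tiles had PBAT levels of 30.3%, 22.0% and 29.5%. The lowest were the Fc receptor-like gene Fcrlb and the hormone receptor gene Mchr1, both listed at 0 in every library, and the integrin gene Itgad (at most 0.00211 RPKM). Their tiles had PBAT levels of 24.5%, 30.4% and 32.7%, so tiles of hosts at 0 and of highly expressed hosts overlapped. Host RPKM is that of the longest annotated gene, and transcripts outside the annotation were not measured. Fcrlb, at 0 RPKM, had 37.7% in PBAT over the whole gene. The rule also limited the range of levels among late tiles, so a relation to host RNA over all tiles was not tested here.

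Changes in host RNA between size classes were tested with limma over all 10518 genes that passed the filter on low values. Of the 98 late hosts in the table, 71 passed it. Between 40–45 and 50–55 µm, 6 late hosts rose (8.45% of 71, against 5.23% of all genes tested) and 0 fell (3.64% of all genes, and 8.87% in either direction), with 15 higher and 1 lower at an unadjusted p under 0.05 (1468 and 1557 of all 10518 genes, 28.8% in either direction). Between 50–55 and 60–65 µm, the interval in which these tiles passed the threshold, limma called 0 late hosts and 0 genes in all (0% each way), with 9 late hosts higher and 2 lower at an unadjusted p under 0.05 (684 and 768 of all genes, 13.8% in either direction). Between 40–45 and 60–65 µm, 20 rose (28.2%, against 17.6%) and 4 fell (5.63%, against 20.1%, with 37.7% of all genes in either direction). Median log2 changes of late hosts were 0.15, 0.08 and 0.24 in these 3 comparisons, against -0.01, -0.01 and -0.02 over all genes. For 652 early hosts the last comparison had 20.1% higher and 9.66% lower. The comparisons share libraries, and the shares were not tested against each other. With the library letter as a replicate block, 10 late hosts rose and 1 fell from 40–45 to 50–55 µm, and 1 rose and 1 fell from 50–55 to 60–65 µm, where 230 genes were called in all. Without the block, the 6 rises between 40–45 and 50–55 µm were 0 without 40–45 µm B or without 50–55 µm A, 2 without 40–45 µm A or without 50–55 µm B, and 4 without a 60–65 µm library. Without 60–65 µm A the 20 rises from 40–45 to 60–65 µm were 7, and the 4 falls were 2 without 40–45 µm B or without either 60–65 µm library.

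The 20 hosts that rose from 40–45 to 60–65 µm did so by 0.38 (Poll) to 1.57 (Lrch1) on the log2(RPKM + 0.1) scale. Lrch1 was at 0.499 and 0.379 RPKM, then 1.06 and 0.833, then 1.70 and 1.46, a log2 change of 1.57 ± 0.17 (SE, adjusted p = 0.000646). The size classes did not overlap. Grn, the secreted growth factor progranulin, went from 0.975 and 1.03 RPKM to 3.55 and 2.98 (log2 change 1.53 ± 0.23, adjusted p = 0.00182). Prr5l, a partner of the mTORC2 kinase complex, went from 2.73 and 2.37 to 6.94 and 6.06 (1.24 ± 0.12, adjusted p = 0.000522). 2900026A02Rik, Grn, Lrch1, Lrrc8e, Nod2 and Prr5l were the 6 hosts that also rose between 40–45 and 50–55 µm, before their tiles reached the threshold. The 4 that fell were Dscam, Fam161b, Grb10 and Lrrc28, by 0.49 to 0.68 on the log2 scale. Dnmt3b, whose start tile was late, rose from 1.02 and 1.04 to 1.70 and 1.68 RPKM (0.59 ± 0.10, adjusted p = 0.00256), and Grb10 went from 2.06 and 2.77 to 1.68 and 1.71 (-0.55 ± 0.15, adjusted p = 0.0186). H13 rose from 3.45 and 4.01 to 5.46 and 5.13 RPKM (0.41 ± 0.10, adjusted p = 0.0124), so the imprinted hosts did not move one way.

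In 24 genes a late and an early tile shared the host (23.5% of late hosts, 3.17% of early hosts), which compares them within a gene. The late tile held more CpGs in 18 of the 24, with medians of 21 and 18, and was nearer a transcript start in 18, at a median of 1024.5 bp against 4938 bp. Its PBAT level was the lower in 19 of 21 genes with both values, with medians of 40.2% and 68.0%. In Myo18a the late tile lay 14 bp from a transcript start with 32 CpGs and had 43.6% in PBAT, and its 3 early tiles averaged 19 CpGs and 67.9%. In Cux1 the late tile had 38 CpGs and 40.2% and the early tile 15 CpGs and 82.9%. Grb10 (41.4% against 27.8%) and Taok3 (41.3% against 35.7%) were the 2 genes with the late tile higher in PBAT. A low tile was found in 70.6% of late hosts and 74.2% of early hosts. Of all 27949 measured tiles, 23266 were low, and the share of all hosts with a low tile is not given here. These shares therefore cannot be read as a trait of these genes. Low describes the sizes measured by RRBS only, and methylation of larger oocytes was not read.

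The RNA of the methylation machinery was read in the same libraries. Dnmt3l, the cofactor of de novo methylation, was at 3.65 and 2.70 RPKM at 40–45 µm, 6.21 and 5.35 at 50–55 µm and 11.3 and 8.25 at 60–65 µm. It rose over the whole span (log2 change 1.51 ± 0.19, adjusted p = 0.000920), and from 50–55 to 60–65 µm the change was 0.69 ± 0.19 (adjusted p = 0.183). Dnmt3a was at 2.79 and 3.05, 2.87 and 3.53, and 3.76 and 3.48 RPKM, a log2 change of 0.22 ± 0.13 over the span (adjusted p = 0.215). Kdm1b, which removes H3K4 methylation, went from 99.8 and 107 to 65.5 and 73.7 RPKM (-0.66 ± 0.10, adjusted p = 0.00238). RPKM is relative to each library, and the paper states that the mRNA content of oocytes increases as they grow. A fall here or among the hosts need therefore not mean fewer transcripts per oocyte. The paper, which also used E18.5 oocytes, reports substantial up-regulation of Kdm1b. Of 32 chromatin genes that passed the filter, 1 rose and 1 fell between 40–45 and 50–55 µm (5.23% and 3.64% of all genes), and limma called 0 of them, as of all genes, between 50–55 and 60–65 µm. Between 40–45 and 60–65 µm, 4 rose and 4 fell, against 17.6% and 20.1% of all genes tested.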

How the data were processed

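RRBS and PBAT reads were trimmed with Trim Galore 0.3.5 and mapped to GRCm38 with Bismark (0.14.0 for RRBS, 0.10.0 for PBAT) by the authors, who stated deduplication for PBAT only. The deposited files give each cytosine's percent methylation with its methylated and unmethylated counts, and the percent recomputed from those counts was used. Calls from PCR copies are not independent molecules. The Wilson interval is over tiles and covers counting error only. RNA reads were trimmed with Trim Galore 0.2.8 and mapped with TopHat2 2.0.9. The deposited RNA table holds RPKM values per gene, and the methods name Cufflinks and SeqMonk for the RNA analysis. Which of them made the table, and whether it counted by strand, is not given in the sources used here, so its depth is unknown and overlapping genes are uncertain. The libraries were stranded.

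Every sample had a group in the labels. Tiles, levels and classes were computed with Python 3.11, numpy and pandas as stated with the results. Genes, exons and transcript starts came from GENCODE M21, and sequence from RefSeq's soft-masked GRCm38.p6. A tile was at a start when a transcript began within 500 bp of its centre. RPKM was scaled by a trimmed mean of ratios (30% of ratios and 5% of levels trimmed at each end), filtered at 0.5 RPKM in at least 2 of 8 libraries and fitted as log2(RPKM + 0.1) with limma 3.58.1 (trend) in R 4.3.3 on all 4 growing classes without a block. Fold changes on that scale understate the change of low genes. The Benjamini-Hochberg threshold was 0.05. The tile rule and the limma fit were each tested on simulated data, and the outcome is not given here. The single GV library entered no test.

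The rule, the classes and the gene lists were chosen with earlier results of these data known. Named were the 12 tiles of highest RRBS level at 60–65 µm (at most 1 per host, at least 5 PBAT cytosines, under 50% repeat-masked), late tiles in listed genes, the 3 tiles on each side of the threshold, the 3 highest and 3 lowest in PBAT and in host RPKM, and called hosts from 50–55 to 60–65 µm, of which there were 0. Lrch1, Gm20388, Ncdn and hosts called in the other comparisons, and pairs within a gene, were named after their values were seen. Of the genes the study amplified singly, the 5 it took as late held 13 measured tiles (0 late, 0 early, 5 low, 8 meeting no rule) and the 5 measured of those it took as early held 30 (0 late, 12 early, 11 low, 7 meeting no rule). Alternatives covered call, cytosine and level thresholds, tile offset, single libraries, pseudocount, filter, scaling, block and host choice.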

Additional observations from a re-analysis of the deposited data

How the results depend on the processing

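The number of late tiles (118) depended on the cytosine minimum and on both level thresholds, and was 90 with at least 10 calls per cytosine. It was 29 with at least 10 cytosines, 265 with at least 3, 15 with low set under 5%, 24 with late set at 30% or more, 551 by the A libraries alone and 455 by the B libraries alone. Leaving out 1 RRBS library gave 119 to 329 tiles, a median PBAT level of 29.3% to 43.5%, a median RRBS level at 60–65 µm of 25.3% to 34.7% and a median of 16 to 20 CpGs. Medians moved beyond their 95% order-statistic interval over tiles in these settings: 33 CpGs with at least 10 cytosines, 14 with at least 3 and 15 by the A libraries. The RRBS level was 24.5% with low under 5%, 37.2% with late at 30% and 27.0% (read in A) by the B libraries. The PBAT level was 30.3% with low under 5%, 41.6% with late at 30% and 32.3% at cytosines that RRBS measured. The share in genes was 100% with late at 30% and otherwise 90.2% to 94.4%. With levels from summed calls, 74 of 117 tiles were members of the reported set.

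Same-letter RNA libraries deviated together among the 3 smaller classes (correlations 0.60, 0.59 and 0.67), but little or not at all between the 60–65 µm class and the others (-0.23 with 10–30, -0.03 with 40–45 and 0.11 with 50–55 µm). Since not every pair of classes passed 0.1, the letters were not taken as pairs. With the letter as a block, 10 late hosts rose and 1 fell from 40–45 to 50–55 µm, 1 rose and 1 fell from 50–55 to 60–65 µm, and the 933, 0 and 3963 genes called in the 3 comparisons became 1909, 230 and 4892. Leaving out 1 library gave 0 to 4 rises from 40–45 to 50–55 µm, and 7 to 18 rises and 2 to 4 falls from 40–45 to 60–65 µm, where the lone library was assumed to vary like the others. Pseudocount, filter, scaling and host choice moved no host count by over 1.5 times, though without the filter 516 genes were called from 40–45 to 50–55 µm, and with a pseudocount of 1, 8 from 50–55 to 60–65 µm. Leaving out 1 library gave 0 to 546 and 1336 to 3383 genes in the first and last comparison. The causes were not tested. The A and B levels of a late tile at 60–65 µm differed with an SD of 8.25 percentage points, wider than the gap of many tiles to the threshold. PBAT measured 108 of 118 tiles, in 1 library.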
